A study of Caenorhabditis elegans with 2 samples.

Results

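Promoter E-box regions are regions of high signal for the transcription factor HLH-4 that hold its DNA element close to the start of a protein-coding gene. They were chosen by 3 criteria from the list of 30000 regions of the pooled replicates. By its label, that list holds background as well as peaks. The region had to be among the 2180 with the highest signal value, which is 4 times the number of the authors' 545 optimal peaks. An E-box with a G or C pair at its centre (CACCTG, its reverse complement CAGGTG, or CAGCTG) had to lie within 50 bp of the summit, the point of highest signal. The summit had to lie no more than 2000 bp upstream and no more than 500 bp downstream of the annotated gene start. Of the 2180 strong regions, 516 held the E-box and 1115 had a gene start in reach, and 264 met both conditions (12.1% of the strong set). These 264 regions were assigned, each to its nearest start, to 255 genes. Of the 264, 115 were no optimal peak, so membership alone does not establish binding. Signal rank, the presence of the E-box and the promoter position were selected on and are given below as description only.

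The measurements were chromatin immunoprecipitation followed by sequencing (ChIP-seq) in 2 biological replicates, which form 1 group. The animals were whole hermaphrodite first-stage (L1) larvae of Caenorhabditis elegans strain OP523, of genotype unc-119(tm4063) III; wgIs523. The integrated transgene wgIs523 encodes HLH-4 fused at its C terminus to GFP and FLAG, and the larvae were taken 6 hours after synchronization by starvation following bleaching. An anti-GFP antibody was used to precipitate sonicated chromatin. Signal from all tissues is mixed in whole animals, the transgene adds copies of the tagged gene, and a control library named in the labels was not analysed here. Read depth is unknown, so shares carry 95% exact Clopper-Pearson intervals, which count regions or genes and reflect counting error alone. Regions of a library are not biological replicates, and p-values below compare sets of regions within these 2 libraries.

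Basic helix-loop-helix (bHLH) proteins such as HLH-4 bind DNA as dimers, usually with an E-protein partner, and each partner contacts its own side of the E-box. HLH-4 belongs to the Achaete-Scute family and is known in C. elegans for its role in the ADL neurons, a pair of ciliated head neurons that sense repellents and pheromones. Chemoreceptors in worms are G protein-coupled receptors of very large gene families, and many are made in only a few sensory neurons.

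The sites below are the E-boxes nearest the summit in strong members at chemoreceptor genes, at other genes with the CACCTG form, and with the palindromic CAGCTG form. Each is given with 10 bases on both sides, 5′ to 3′, in coordinates of the ce11 (WBcel235) genome build, on the strand that reads CACCTG, or on the strand of the gene for CAGCTG. Capitals mark the E-box.
sre-41 (chrII:12387658-12387683, minus strand): agatcaatttCACCTGttcgaaggaa
srz-82 (chrIV:3482731-3482756, plus strand): aaaaaaaaatCACCTGtcttccaaga
sre-27 (chrII:12418184-12418209, plus strand): acaaaaattgCACCTGtccatgatgt
Y105C5A.15 (chrIV:15687978-15688003, minus strand): ggagtggtttCACCTGtttttgactt
tkr-2 (chrIV:6200446-6200471, minus strand): acagaaaaatCACCTGgattctggag
Y22F5A.11 (chrV:10276224-10276249, minus strand): aatgaaaatcCAGCTGcattctcaaa
trcs-2 (chrII:8722165-8722190, plus strand): actgtaatttCAGCTGctcgttaccg
The next sites are examples at genes of sensory signalling or of the ADL neuron, which are described by function further on. Capitals mark the E-box here as well.
sre-1 (chrII:7709704-7709729, plus strand): aaaacgaattCACCTGtcacagcaaa
gpc-1 (chrX:12885094-12885119, minus strand): atttgctaaaCACCTGtttcctagtc
osm-9 (chrIV:3557665-3557690, plus strand): gaataatttcCACCTGctttaaagga
gpa-1 (chrV:11178513-11178538, minus strand): aattaaatttCACCTGcagttgagag
gpa-11 (chrII:4247440-4247465, plus strand): gttgagttttCACCTGtttgttgtgt

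The strongest promoter E-box region lay upstream of sre-41, a chemoreceptor gene, at chrII:12387582-12387869. Its signal value was 274.1 in the pooled list, 117.1 in replicate 1 and 164.7 in replicate 2, and it ranked 3, 3 and 4 in these lists. The regions at the chemoreceptor genes srz-82 (chrIV:3482667-3482874), sre-27, srz-10 and srz-23 ranked 4, 8, 13 and 36 in the pooled list. The replicates placed srz-82 at ranks 4 and 6, sre-27 at 9 and 9, srz-10 at 15 and 13, and srz-23 at 8 and 109. All 5 summits were intergenic, 593, 135, 593, 93 and 62 bp upstream of the start for sre-41, srz-82, sre-27, srz-10 and srz-23. Each of the 5 had an E-box of the CACCTG form.

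The 12 strongest regions at genes that are not chemoreceptors ranked from 5 to 52 in the pooled list. They were assigned to Y22F5A.11, K10D6.4, F48G7.4, Y105C5A.15, gcsh-2, C18H7.6, F13E9.15, tkr-2, C01G6.4, F13D11.4, F28C6.9 and trcs-2. Among these, gcsh-2 encodes a protein of the glycine cleavage system and tkr-2 a receptor of the tachykinin family. The Y22F5A.11 region (chrV:10276148-10276335) had a signal value of 246.1 in the pooled list, 80.6 in replicate 1 and 165.9 in replicate 2, and its summit lay 592 bp upstream of the start, at a CAGCTG site. The K10D6.4 region (chrV:11201916-11202122) had 245.3, 103.9 and 142.0 in the same order of lists, with the summit in a coding exon 101 bp downstream of the start. At tkr-2 (chrIV:6200369-6200512) the values were 145.8, 57.5 and 89.4, with the summit 1620 bp upstream. These 12 regions ranked from 5 to 70 in replicate 1 and from 3 to 94 in replicate 2, so both replicates placed them near the top. The E-box was CAGCTG at Y22F5A.11, F13D11.4 and trcs-2 and CACCTG at the other 9. Their summits were 97 to 1922 bp upstream of the start, apart from K10D6.4.

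Signal values over all 264 regions ran from 25.9 to 274.1 with a median of 47.9. The median was 42.2 in the 252 strong E-box regions with no gene start in reach (distal E-box regions). It was 30.8 in the 851 strong promoter regions without the E-box and 13.7 in the 289 weak promoter E-box regions, those from rank 15001 on that overlap no optimal peak. Of the 264 regions, 149 (56.4%) were optimal peaks. The lowest ranks inside the strong set were the regions at garr-1, syx-17 and C34B4.5, with signal values of 26.3, 26.1 and 25.9. The next regions of the same kind outside it, at delm-2, sre-30 and ric-4, had 25.9, 25.7 and 25.7. The 9 genes C01G6.4, C34B4.5, Y105C5A.15, Y9C2UA.1, dmd-5, npr-21, sre-41, srh-148 and tkr-2 had 2 promoter E-box regions each. The summits of such a pair were 199 bp apart at sre-41 and 1515 bp apart at tkr-2, the closest and the farthest pair. At sre-41 and C01G6.4 the 2 regions overlap each other, and each was counted as a separate region throughout. GC content in the 101-bp window had a median of 36.6% in promoter E-box regions, 36.6% in distal E-box regions, 34.7% in strong promoter regions without the E-box and 35.6% in weak promoter E-box regions.

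The promoter E-box regions recurred in both replicates more often than strong promoter regions with no E-box within 50 bp of the summit. Of the 264, 163 (61.7%, interval 55.6% to 67.6%) overlapped a region of the 2180 strongest in each replicate, against 223 of 851 (26.2%, 23.3% to 29.3%). The difference passed Fisher's exact test (two-sided, Benjamini-Hochberg adjustment across 14 tests, adjusted p = 6.6e-24). The pooled list that ranks the regions holds the reads of both replicates, so recurrence is not independent of the selection. Pooled signal also differs between these sets, with medians of 47.9 and 30.8. The test therefore cannot separate the E-box from signal strength. Among the regions that were no optimal peak, the shares were 26 of 115 (22.6%) and 74 of 677 (10.9%; exact test, unadjusted p = 0.0012). Among optimal peaks they were 137 of 149 (91.9%) and 149 of 174 (85.6%), which did not pass (exact test, unadjusted p = 0.082). Signal was not matched within either of these subsets. With the 545 strongest regions of each list in place of 2180, the difference was 14.6 points, against 35.5 points with 2180, and passed (exact test, adjusted p = 0.029). Distal E-box regions had 90.2% among optimal peaks and 16.9% below them, and neither difference from the promoter E-box regions passed (exact test, unadjusted p = 0.67 and 0.33). Of the remaining 101 promoter E-box regions, 38 were in the strong set of replicate 1 alone, 41 in that of replicate 2 alone and 22 in neither.

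**Figure D1:**
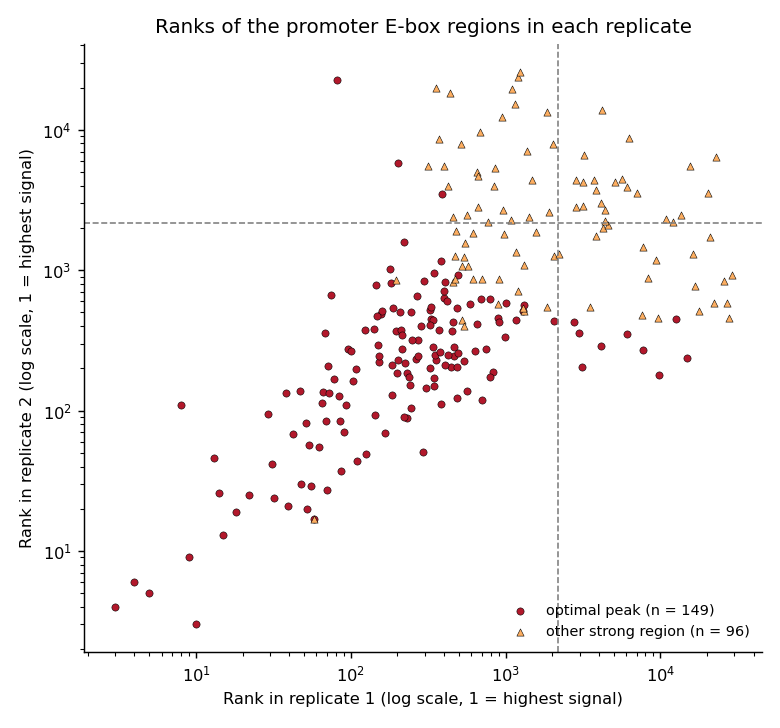
Rank of each promoter E-box region in replicate 1 (x axis) and replicate 2 (y axis), both on log scales with 1 as the highest signal; circles are optimal peaks, triangles other strong regions, and dashed lines mark rank 2180. The 13 regions with no overlapping region in replicate 1 and the 6 with none in replicate 2 are not drawn, and 163 points lie inside both lines.

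Individual regions departed from this. The region at hlh-4, the gene of the tagged factor, lay at chrIII:9738883-9739212 with its summit 6 bp inside the gene, in the 5' UTR. It had a signal value of 54.7 in the pooled list and 45.9 in replicate 2, where it ranked 178, but 10.5 in replicate 1, where it ranked 9765. The strain carries further hlh-4 sequence in the transgene, and reads from it cannot be told apart here from those of the chromosomal gene. The region at gpa-1 ranked 362 in replicate 2 and overlapped no region of replicate 1. By contrast osm-9 ranked 299 in replicate 1 and 836 in replicate 2, with signal values of 27.6 and 22.6.

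Applying the 3 criteria to each replicate list by itself gave 228 regions in replicate 1 and 223 in replicate 2. The CACCTG form made up 67.6% ± 3.64 of them, intergenic summits 74.1% ± 1.16, regions at chemoreceptor genes 26.8% ± 2.40, and regions within 500 bp of the start 59.0% ± 2.81 (SD, n = 2 replicates each). In the same order, these shares were 68.9%, 75.8%, 25.8% and 59.8% in the 264 regions of the pooled list, which holds the reads of both replicates.

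Promoter E-box regions at chemoreceptor genes sat closer to the gene start than those at other genes. The 68 regions at 66 chemoreceptor genes had a median summit position 108 bp upstream of the start, against 408.5 bp upstream for the 196 regions at 189 other genes. The middle 50% of the chemoreceptor regions lay from 309.25 to 82.75 bp upstream, against 1037 to 104.25 bp upstream at other genes, so the ranges overlap. Within 500 bp of the start on either side lay 54 of 68 (79.4%, interval 67.9% to 88.3%), against 104 of 196 (53.1%, 45.8% to 60.2%). The difference was 26.4 percentage points (interval 13.3 to 36.9; Fisher's exact test, adjusted p = 0.00036). In the 200 bp just upstream lay 45 chemoreceptor regions (66.2%) and 41 of the others (20.9%). Related receptor genes were counted as independent.

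The annotation of the start differs between these genes. The gene start coincided with the earliest coding base, with no annotated 5' UTR, for 48 of the 68 chemoreceptor regions (70.6%) and for 32 of the 196 others (16.3%). Measured from the earliest coding base instead, 79.4% of the chemoreceptor regions and 46.4% of the others lay within 500 bp, with medians 120.5 and 640 bp upstream. Among regions whose gene starts at its coding sequence, 42 of 48 chemoreceptor regions (87.5%) and 17 of 32 others (53.1%) lay within 500 bp of it. The share at chemoreceptor genes was thus 79.4% by either definition of the start.

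Set against strong promoter regions without the E-box, the 264 regions were about as often within 500 bp of the start. Within 500 bp of the start lay 158 of 264 (59.8%) and 503 of 851 (59.1%), a difference of 0.74 points (interval -6.10 to 7.37; exact test, adjusted p = 0.886). Within 200 bp on either side the difference was 10.1 points and passed (Fisher's exact test, adjusted p = 0.0056). Without chemoreceptor genes, a restriction added once the data had been seen, the 500-bp difference was -6.46 points and did not pass (exact test, adjusted p = 0.167). Weak promoter E-box regions lay within 500 bp less often, in 136 of 289 (47.1%; difference 12.8 points, exact test, adjusted p = 0.0066). That difference was 7.96 points without chemoreceptor genes and 6.83 points with replicate 1 alone, and neither passed (exact test, adjusted p = 0.167 and 0.244). The extremes were klu-1, which encodes a zinc finger protein, with its summit 2000 bp upstream, and sre-1, a chemoreceptor gene expressed in ADL, with its summit 2 bp upstream.

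**Figure D2:**
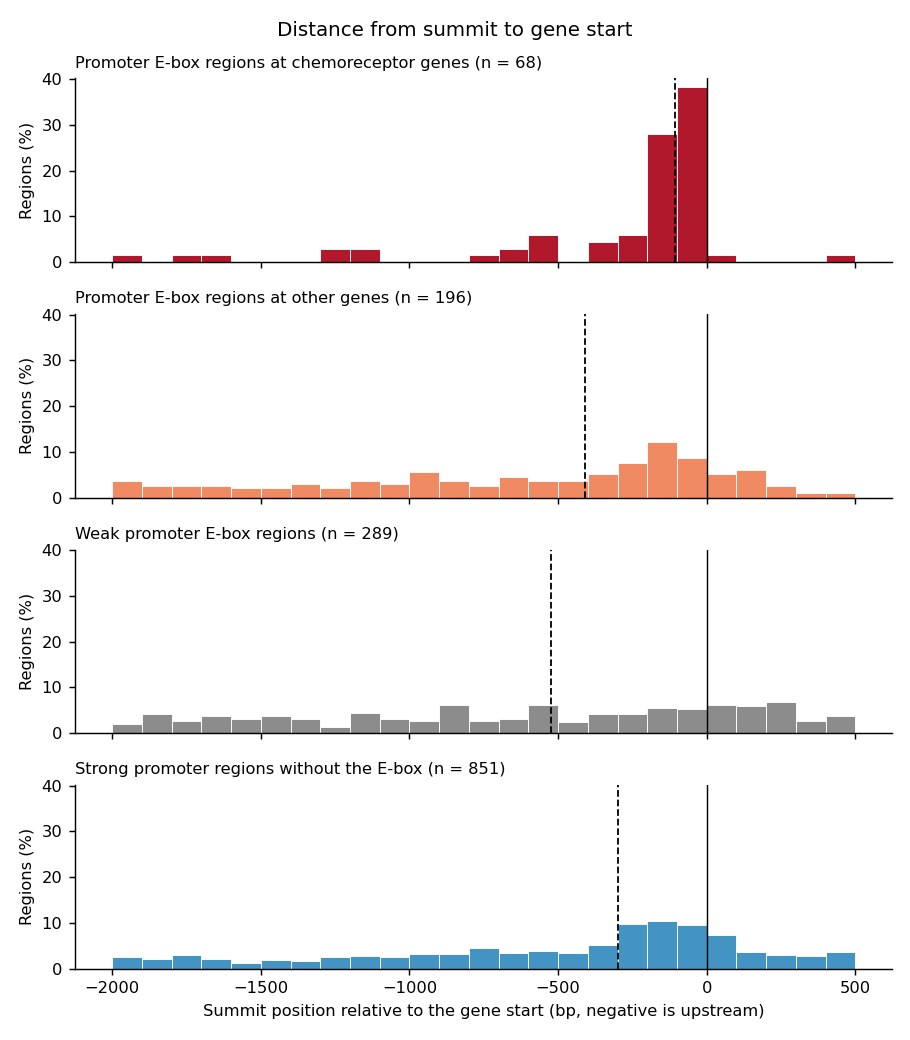
Share of regions (y axis, %) in 100-bp bins of summit position relative to the gene start (x axis, bp, negative is upstream), for promoter E-box regions at chemoreceptor genes and at other genes, weak promoter E-box regions and strong promoter regions without the E-box; solid lines mark the start and dashed lines the median. The chemoreceptor panel peaks in the 200 bp upstream of the start with its median at 108 bp, and the other medians lie at 408.5, 523 and 300 bp upstream.

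Most summits were upstream and between genes. Of the 264, 231 (87.5%) lay upstream of the start, against 79.6% of strong promoter regions without the E-box and 74.4% of weak promoter E-box regions. The window itself reaches farther upstream than downstream. Of the 264, 200 (75.8%) were intergenic, 26 lay in coding exons, 22 in introns, 11 in 5' UTRs, 4 in non-coding RNA exons and 1 in a 3' UTR. Strong promoter regions without the E-box were intergenic in 510 of 851 cases (59.9%), 15.8 points fewer (Fisher's exact test, adjusted p = 1.2e-05). Among optimal peaks alone the difference was 2.56 points and did not pass (exact test, adjusted p = 0.648), and among the 1090 strongest regions it was 7.08 points (exact test, adjusted p = 0.140). Gene starts on both strands were in reach of 46 of the 264 summits (17.4%), against 233 of 851 without the E-box (27.4%; difference -9.96 points, exact test, adjusted p = 0.0031). With replicate 1 alone that difference was -7.06 points (exact test, adjusted p = 0.056), and with 545 and 1090 strong regions it was -20.4 and -17.6 points (exact test, adjusted p = 0.00053 and 2.0e-05). Chromosome V carried 102 of the 264 regions (38.6%), chromosome II 49, IV 42, X 39, III 17 and I 15. On chromosome V lay 27.8% of distal E-box regions, 22.4% of strong promoter regions without the E-box and 24.6% of weak promoter E-box regions. These shares were not tested.

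The CACCTG form of the E-box was nearest the summit in 182 of the 264 regions (68.9%, interval 63.0% to 74.5%) and CAGCTG in 82. The share of CACCTG was 72.6% in distal E-box regions, a difference of -3.68 points (interval -11.4 to 4.17; Fisher's exact test, adjusted p = 0.489), and the difference was -8.61 points with replicate 2 alone (exact test, adjusted p = 0.074). In weak promoter E-box regions it was 63.3%, a difference of 5.62 points (interval -2.29 to 13.4; exact test, adjusted p = 0.277). That difference was 10.8 points with replicate 1 alone, which passed, and 8.86 points with replicate 2 alone, which did not (exact test, adjusted p = 0.032 and 0.074). Signal strength was similar in both classes: 102 of the 182 CACCTG regions (56.0%) and 47 of the 82 CAGCTG regions (57.3%) were optimal peaks, with median signal values of 48.3 and 46.9. Their summits had medians 239 and 309 bp upstream of the start. CACCTG made up 53 of the 68 regions at chemoreceptor genes (77.9%) and 129 of the 196 at other genes (65.8%). That difference of 12.1 points (interval -0.71 to 22.8) did not pass in the pooled list (exact test, adjusted p = 0.121). It was 20.5 points with replicate 2 alone and 18.0 points with replicate 1 alone, and passed in each (exact test, adjusted p = 0.015 and 0.022).

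No preferred direction of the CACCTG site was detectable. CACCTG is not a palindrome, so it can be read along the gene or against it. Along the strand of the assigned gene it read CACCTG in 88 of 182 regions (48.4%, interval 40.9% to 55.9%; two-sided exact binomial test, adjusted p = 0.766). The E-box lay on the upstream side of the summit, along the gene, in 129 of the 264 regions and on the downstream side in 135. Among the strongest, the E-box read CACCTG along the gene at srz-82 and K10D6.4 and CAGGTG at sre-41 and tkr-2.

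The E-box centre lay a median of 16.5 bp from the summit. The criteria admit only E-boxes within 50 bp, so closeness itself was selected on. Weak promoter E-box regions, under the same limit, had a median of 23.5 bp. Within 10 bp lay 80 of the 264 (30.3%), against 64 of 289 weak promoter E-box regions (22.1%). This difference of 8.16 points (interval 0.83 to 15.4) missed the threshold (exact test, adjusted p = 0.066). It was 10.6 points with replicate 2 alone and 10.1 with replicate 1 alone, and passed in both (exact test, adjusted p = 0.022 and 0.030). Within 20 bp instead of 10 it was 13.5 points (exact test, adjusted p = 0.0038). Distal E-box regions had 34.5% within 10 bp, a difference of -4.22 points (interval -12.2 to 3.84; exact test, adjusted p = 0.485). Regions at chemoreceptor genes had 33.8% within 10 bp and those at other genes 29.1% (exact test, adjusted p = 0.630).

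**Figure D3:**
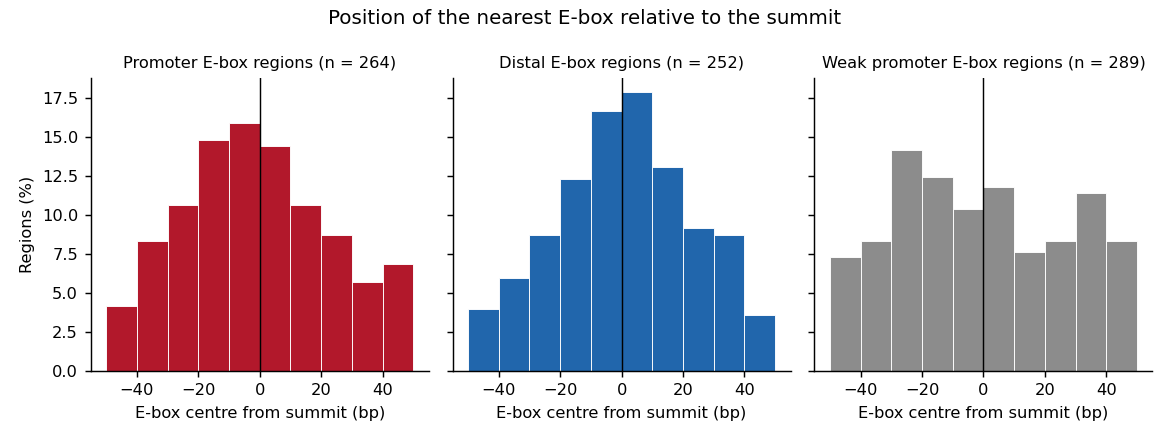
Position of the E-box centre nearest the summit (x axis, bp, in 10-bp bins along the genome's plus strand) as the share of regions (y axis, %) for promoter E-box regions, distal E-box regions and weak promoter E-box regions; the vertical line marks the summit. The median distance was 16.5 bp in promoter E-box regions, 15.5 bp in distal ones and 23.5 bp in weak promoter ones, whose bars show no single centre.

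A second E-box was more frequent than in weak regions. In 43 of the 264 (16.3%, interval 12.05% to 21.3%) the 101-bp window held 2 E-boxes, against 10 of 289 weak promoter E-box regions (3.46%, 1.67% to 6.27%; Fisher's exact test, adjusted p = 1.4e-06). Distal E-box regions came close to the promoter share, with 2 E-boxes in 35 of 252 (13.9%) and 3 in a further 2. That comparison was not tested, so a second E-box is not shown to be particular to promoters. With a window of 25 bp on both sides the difference of 12.8 points was 3.64 points and did not pass (exact test, adjusted p = 0.114). The centres of a pair were 11 to 76 bp apart, with a median of 32 bp. In 23 pairs both sites were CACCTG, 10 of them on the same strand and 13 on opposite strands, in 17 the forms were mixed and in 3 both were CAGCTG. The examples shown differ in spacing. The sites are on the same strand at srh-136 and on opposite strands at C18H7.6 and Y9C2UA.1. The window of 101 bases around the summit is given along the strand of the gene, with capitals on both E-boxes.
C18H7.6 (chrIV:592532-592632, minus strand): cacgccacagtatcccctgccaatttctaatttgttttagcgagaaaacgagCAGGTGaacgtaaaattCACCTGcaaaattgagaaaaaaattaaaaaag
srh-136 (chrV:16497654-16497754, minus strand): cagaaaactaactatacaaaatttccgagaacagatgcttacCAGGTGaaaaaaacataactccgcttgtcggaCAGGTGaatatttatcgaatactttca
Y9C2UA.1 (chrII:9139322-9139422, plus strand): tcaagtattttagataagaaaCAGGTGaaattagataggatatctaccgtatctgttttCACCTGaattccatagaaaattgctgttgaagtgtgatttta
The C18H7.6 pair was 17 bp apart, the pair at the chemoreceptor gene srh-136 was 32 bp apart, and the Y9C2UA.1 pair was 38 bp apart.

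The bases beside CACCTG differed from those in weak promoter regions, whereas no difference from distal E-box regions passed. Read on the strand that gives CACCTG, T stood just before it in 97 of 182 sites (53.3%), against 58 of 183 sites in weak promoter E-box regions (31.7%; Fisher's exact test, adjusted across 16 base and position pairs, adjusted p = 0.00020). Distal E-box regions had T there in 50.8% of sites. T stood 2 bases before it in 57.1% of sites, against 37.7% in weak regions (exact test, adjusted p = 0.00064). A was less frequent at 3 of the positions: just before the site (12.1% against 29.0%), just after it (8.24% against 24.6%) and 2 bases after it (18.1% against 31.1%; exact test, adjusted p = 0.00028, 0.00020 and 0.012). C and G were less frequent 2 bases before it (4.95% against 19.1% and 2.75% against 14.8%; exact test, adjusted p = 0.00020 and 0.00022). These 7 of the 16 pairs passed against weak regions and 0 of 16 against distal E-box regions by the same Fisher's exact test, where the smallest adjusted p was 0.568. In the replicate lists taken alone, T stood just before the site in 55.0% and 51.7% of the promoter E-box regions.

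**Figure D4:**
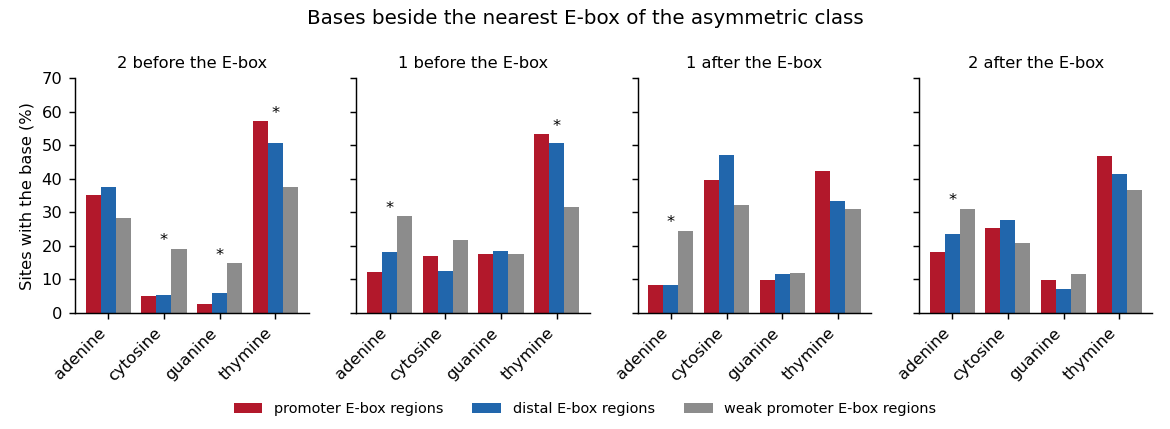
Share of sites (y axis, %) with each base at the 2 positions before and the 2 positions after the nearest CACCTG site, read on the strand that gives CACCTG, in 182 promoter E-box regions, 183 distal and 183 weak promoter E-box regions; asterisks mark the 7 pairs with adjusted p under 0.05 against weak regions (Fisher's exact test). Thymine before the site stands higher and adenine after it lower in both strong sets than in the weak one.

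Over all 19985 protein-coding genes, 255 (1.28%) were assigned a promoter E-box region, and each gene list below is read against that share. Chemoreceptor genes held 66 of 1310 (5.04%, interval 3.92% to 6.37%). The families differed in share: sre had 9 regions for 54 genes, srz 10 for 63, sri 7 for 61 and srh 21 for 220, whereas str had 4 for 193 and srx 1 for 101. That chemoreceptor genes carry strong sites was known from earlier results of these data, so these counts are a description. Strong promoter regions without the E-box were assigned to 4.08% of all genes. Their share was 15.4% in ADL genes, 8.62% in sensory signalling genes and 5.26% in neuropeptide and amine receptors. It was 3.74% in chemoreceptor genes and 3.65% in nuclear hormone receptors. Whether a high share in a list below is particular to the E-box was not tested.

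Genes of sensory signalling held 5 of 58 (8.62%, interval 2.86% to 19.0%). They were gpc-1, which encodes a G protein gamma subunit, gpa-1, gpa-3 and gpa-11, which encode G protein alpha subunits, and osm-9, a TRPV channel subunit needed for several chemosensory responses. Their pooled ranks were 333, 827, 904, 1290 and 420 for gpc-1, gpa-1, gpa-3, gpa-11 and osm-9. The summits lay 75, 854, 1910 and 228 bp upstream of the start at gpc-1, gpa-1, gpa-3 and osm-9, and 240 bp downstream at gpa-11. The gpc-1 region had signal values of 23.0 in replicate 1 and 32.4 in replicate 2, and the gpa-3 region 15.1 and 20.2. The list of ADL genes held 4 of 26 (15.4%, interval 4.36% to 34.9%), namely sre-1, hlh-4, osm-9 and T09B9.3. Lists share genes, and osm-9 is also counted in sensory signalling, sre-1 in chemoreceptors and hlh-4 in bHLH factors. Of the 4 ADL genes, sre-1 and osm-9 were in the strong set of both replicates. In replicate 1, hlh-4 ranked 9765 and T09B9.3 ranked 9379, outside the strong set, and hlh-4 is also carried by the transgene. All of these sites were of the CACCTG form.

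Receptors for neuropeptides and amines held 8 of 133 (6.02%, interval 2.63% to 11.5%). They were tkr-2, npr-43, ntr-2, npr-21, daf-38, frpr-19, npr-39 and dmsr-9. The tkr-2 gene had a further region 105 bp upstream of its start with a signal value of 46.0, beside the one 1620 bp upstream. At ntr-2, which encodes a receptor for the vasopressin-like peptide nematocin, the summit lay 1476 bp upstream and the signal values were 29.5 in replicate 1 and 24.9 in replicate 2. At daf-38, a receptor in ascaroside pheromone sensing, it lay 86 bp upstream with 2 E-boxes, at ranks 416 and 608. The dmsr-9 region was uneven, at rank 25895 in replicate 1 and 843 in replicate 2. So were the regions at frpr-19, at 681 and 9575, and the further tkr-2 region, at 2992 and 357. The npr-21 region 51 bp upstream of the start overlapped no region of replicate 2. Other regions at these receptor genes were in the strong set of both replicates. The neuropeptide genes themselves held 2 of 143 (1.40%), nlp-60 and nlp-63, a share close to that of all genes. The nlp-63 region ranked 386 in replicate 1 and 3487 in replicate 2.

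Among transcription factors, nuclear hormone receptors held 10 of 274 (3.65%, interval 1.76% to 6.61%), led by nhr-50, nhr-17 and nhr-6 at pooled ranks 107, 117 and 324. These and nhr-189 were in the strong set of both replicates, and the rest of the 10 were not. The nhr-6 gene, the worm's NR4A-type receptor, had a signal value of 35.4 in replicate 1 and 21.3 in replicate 2, with the summit 184 bp upstream. Genes of bHLH factors held 2 of 39, hlh-4 itself and hlh-30, the worm counterpart of TFEB, whose summit lay 1877 bp upstream at rank 279. None of 99 homeobox genes was assigned such a region (upper interval limit 3.66%). The DM-domain factor gene dmd-5, outside these lists and named after its values were seen, had 2 regions, 1520 and 815 bp upstream.

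Other neuronal lists had few members. Ciliary genes held 3 of 88 (3.41%, interval 0.71% to 9.64%): xbx-6, xbx-9 and dyf-6, the last a component of intraflagellar transport. Of these, only xbx-6 was in the strong set of both replicates. The xbx-9 region overlapped no region of replicate 1, and dyf-6 ranked 15553 in replicate 1 and 5561 in replicate 2. Synaptic, axonal and panneuronal genes held 3 of 105 (2.86%), namely maco-1, which encodes macoilin, the Dishevelled gene mig-5, and the synaptotagmin-family gene snt-7. The snt-7 region ranked 853 in replicate 1 and 5374 in replicate 2. Ion channels and gap junctions held 1 of 306 (0.33%), the ligand-gated channel gene lgc-48, and guanylyl cyclases 0 of 33 (upper interval limit 10.6%). Strong promoter regions without the E-box were assigned to 1.96% and 6.06% of the genes of these 2 lists. The lgc-48 summit lay in a coding exon, at ranks 196 and 854 in the replicates.

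Ribosomal and translation genes held 0 of 119 (upper interval limit 3.05%) and histone genes 0 of 72 (upper interval limit 4.99%). Collagen and cuticle genes held 2 of 314 (col-62 and the patched-related ptr-5), and C-type lectin and immune peptide genes 3 of 353 (fipr-13, clec-10 and clec-195). F-box, BTB and MATH genes held 2 of 508 (fbxb-65 and fbxb-76), and detoxification genes 1 of 253 (dhs-9, a short-chain dehydrogenase gene). Heat shock and stress genes held 1 of 78 (dnj-9, a DnaJ-domain gene), and kinases and phosphatases 1 of 98 (lip-1, a phosphatase of MAP kinase). Strong promoter regions without the E-box were assigned to 13 of the 119 ribosomal and translation genes (10.9%) and to 0 of the 72 histone genes. Their share was 7.69% in heat shock and stress genes and 5.10% in kinases and phosphatases. In the other lists of this paragraph it was below the 4.08% of all genes. The strongest promoter E-box region in these lists was at fipr-13, with a pooled signal value of 99.0, 28.0 in replicate 1 and 70.9 in replicate 2. Only fipr-13, fbxb-65, dnj-9 and lip-1 were in the strong set of both replicates. The dhs-9 region ranked 17844 and 513 in replicates 1 and 2, fbxb-76 1204 and 23702, and col-62 4109 and 287. The ptr-5 region overlapped no region of replicate 1, and clec-10 and clec-195 were in the strong set of neither replicate.

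**Figure D5:**
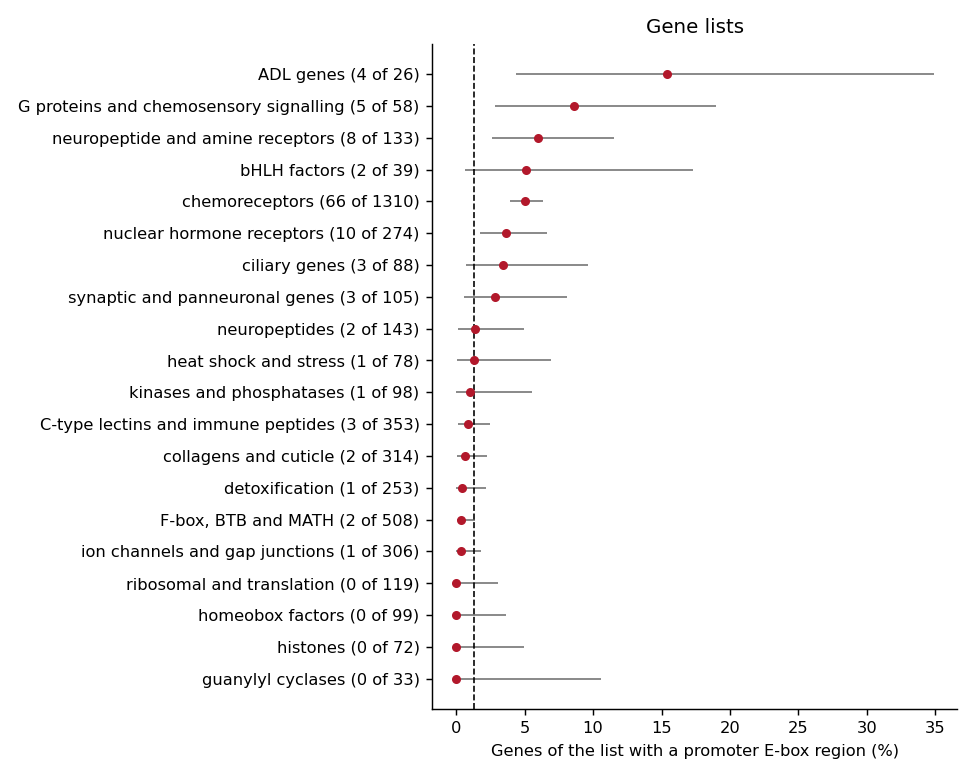
Share of the genes of each list with a promoter E-box region (x axis, %), with 95% exact Clopper-Pearson intervals as bars and the number of genes in brackets; the dashed line marks the 1.28% of all protein-coding genes. Lists of ADL genes, sensory signalling, neuropeptide and amine receptors, chemoreceptors and nuclear hormone receptors have intervals that lie wholly to the right of the line. For strong promoter regions without the E-box, the shares in these lists were 15.4%, 8.62%, 5.26%, 3.74% and 3.65%, against 4.08% of all genes. Lists share genes, and osm-9, sre-1 and hlh-4 of the ADL list are each counted in another list as well.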

How the data were processed

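ChIP-seq of tagged HLH-4 was measured in 2 replicates of 1 group. The deposited lists give each region a signal value. Per the text deposited beside them, they came from aligned reads of a replicate, or of both pooled, set against a control. Not given in the sources used here are the aligner, the peak caller, the depth and the scaling of the signal. The authors' signal was used only to rank and describe regions within a list. The deposited q-values and the lists on ce10 were not used.

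Summits were assigned to the nearest protein-coding gene start in reach (Ensembl release 115, WBcel235, which is ce11). Sequences come from the NCBI RefSeq genome of that build. E-boxes were searched on both strands in the 101-bp window. Overlap with a replicate list needed 1 bp, and the 2 regions at C01G6.4 share 1 region in each replicate list. Comparisons of shares used Fisher's exact test, two-sided, with Benjamini-Hochberg adjustment over 14 tests or over 16 base and position pairs. The threshold was 0.05, with Newcombe intervals of differences (Python 3.11.15, scipy 1.17.1, statsmodels 0.14.6, pandas 2.3.3). Recovery of planted E-boxes, with their class, strand, offset and distance, and a flanking-base comparison were checked on simulated data. Other comparisons were not simulated. Comparisons within optimal and other ranks are unadjusted.

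Genes named are the 12 strongest members outside chemoreceptor genes, the 5 strongest at them, up to 3 per list, 3 on each side of the threshold, and those with the nearest and the farthest upstream summit. Others complete a count or were named after their values were seen. Members, lists and comparisons were chosen with earlier results of these data known. Alternatives varied the number of strong regions, the windows, the gene start, the replicates and the distance limits.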

Additional observations from a re-analysis of the deposited data

How the results depend on the processing

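All differences are in percentage points, promoter E-box regions minus the other set. The count of 264 regions became 149 with as many strong regions as optimal peaks. It was 165 with the E-box within 25 bp and 362 with it within 100 bp. With a promoter window widened to 5000 bp upstream and 1000 bp downstream it was 398. Closeness to the start against strong regions without the E-box, 0.74 in the pooled list, changed sign in most alternatives: -10.4 and -3.11 with 545 and 1090 strong regions, -2.70 with the E-box within 100 bp, -0.80 with the wider promoter window, -1.001 with every transcript start, -0.17 within 1000 bp and -6.46 without chemoreceptor genes, while within 200 bp it was 10.1 and passed. Against weak regions closeness was 11.5 with the E-box within 25 bp and 7.96 without chemoreceptor genes, neither passing. The intergenic difference was 2.56 and 7.08 with 545 and 1090 strong regions. With the E-box within 25 bp, the difference in repeated E-boxes was 3.64 and that in both-strand starts -5.18, and neither passed, whereas both-strand starts were -20.4 and -17.6 with 545 and 1090 strong regions, both passing. Class against weak regions passed with the E-box within 100 bp (9.08), the wider promoter window (10.3) and replicate 1 alone (10.8). Class against distal regions, which passed in no alternative, was 0.52 with the wider promoter window and -7.77 with 545 strong regions. Centring against weak regions passed with the E-box within 100 bp (10.4), the wider promoter window (8.09), every transcript start (9.65), and centring limits of 5 bp (7.32) and 20 bp (13.5). The class difference between chemoreceptor and other members passed with the E-box within 100 bp (13.1). Orientation, as points above an even split, was 4.90 with 545 strong regions, 0.45 with the E-box within 25 bp and 1.03 for intergenic summits alone, none passing. Passing flank pairs numbered 11 with the E-box within 100 bp and 0 against distal regions. Recurrence in both replicates was 6.31 among optimal peaks, not passing, and 14.6 with 545 strong regions, passing. The restrictions to intergenic summits, to optimal peaks, without chemoreceptor genes and against distal regions were chosen after seeing the data. The cause of these changes was not tested.

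With 1 replicate list at a time, orientation ranged from -1.25 to 4.48, centring against weak regions from 10.1 to 10.6, centring against distal regions from -4.56 to 1.76, class against distal regions from -8.61 to -3.59, class against weak regions from 8.86 to 10.8, closeness against weak regions from 6.83 to 11.3, both-strand starts from -9.12 to -7.06, class between chemoreceptor and other members from 18.0 to 20.5, centring between them from -12.7 to 1.94, and passing flank pairs from 10 to 11. No paired analysis was possible because there is only 1 group. Since depth is unknown, no detection limit can be given for a region missing from a list.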

Other observations

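Taking the flanking bases together, a combination chosen after their single shares had been seen, T before CACCTG with C or T after it was found in 83 of 182 promoter E-box regions (45.6%), in 77 of 183 distal E-box regions (42.1%) and in 37 of 183 weak promoter E-box regions (20.2%). T at both bases before the site was found in 59 promoter E-box regions (32.4%), in 57 distal ones (31.1%) and in 28 weak ones (15.3%). These are counts with no test.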
